A study of Mus musculus with 24 samples.

Results

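A set of 36 genes whose signal differed widely from array to array inside each mouse line was examined in amygdala and hippocampus. The set was chosen by measured values: on the scale log2(signal + 16), called the level below, a probe set (a group of probes that reads 1 transcript or a stretch of it) was taken if it named 1 gene, had a mean level above 8 over 24 arrays, and had a standard deviation (SD) within groups above 0.35 in both tissues. Probe sets that followed Ttr, a transcript of the choroid plexus, at a Pearson r of 0.6 or more were left out, and so were a few genes by name. This gave 41 probe sets of 36 genes, out of 7500 probe sets of 5055 genes with 1 symbol and a mean level above 8, and out of 45037 probe sets tested in all. Before the last steps 49 probe sets had the wide spread. Of these, 4 probe sets of Ttr and 1 of Igfbp2 were removed by the Ttr rule, and Pam, Rpgrip1 and Efhd2 by name. The median SD of the 41 was 0.45 in amygdala and 0.49 in hippocampus, where the 7500 had medians of 0.12 and 0.11. These SDs chose the members and are a description. Just inside the threshold, by the smaller SD of the tissues, lay Rps4l (0.351), Gnb1 (0.351) and Nr4a1 (0.359), and just outside it lay another probe set of Fam126b (0.347), Cd200 (0.346) and Wdr48 (0.341).

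All arrays came from male mice of 2 lines bred for how long they freeze in contextual fear conditioning, a test of memory for a place of foot shock. Line 24 is the low freezing line (arrays 1 to 6 of each tissue) and line 25 the high freezing line (arrays 7 to 12 of each tissue), with 6 arrays per line and tissue. The labels name neither age, strain of origin, handling nor any pooling of tissue, nor do they say whether an array number stands for 1 animal in both tissues. The p-values below therefore measure the spread between these arrays, and each freezing phenotype is represented by 1 line.

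On marker genes, 12 of 14 hippocampus markers were higher in hippocampus and 2 in amygdala. Of 11 amygdala markers 6 were higher in amygdala and 1 in hippocampus. Markers of other regions were higher in amygdala as well: 11 of 12 for striatum, 9 of 12 for cortex and claustrum and 6 of 12 for hypothalamus. The marker counts of the amygdala arrays are thus not particular to amygdala. Amygdala arrays 7 and 8 had 5' to 3' actin ratios of 0.301 and 0.339, while the other amygdala arrays lay at 0.497 or above. Hippocampus array 7 had the highest median signal of all, 55.7. Without these 3 arrays the same rule again chose 41 probe sets, 37 of them shared; Fam168a, Mtmr7, Rps4l and Shisa4 dropped out. The 5' control probe set of 18S ribosomal RNA, which depends on how RNA was prepared and labelled, read 3600 to 5799.9 in linear signal on the high line hippocampus arrays and 5859 to 7093 on those of the low line.

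The members have no single function. Pttg1 encodes securin, which holds separase inactive until sister chromatids part, and which is also present in cells that do not divide. Meg3 and Rian are long noncoding RNAs transcribed from the maternal copy of an imprinted locus and are abundant in neurons, and Snhg11 hosts small nucleolar RNAs. Rab3a is a synaptic vesicle GTPase, Slc1a2 the main glutamate transporter of astrocytes, Gnb1 a G protein beta subunit, Necab1 a neuronal calcium-binding protein, Gprc5b an orphan G protein-coupled receptor, Ptprg a receptor tyrosine phosphatase and Shisa4 a Shisa-family membrane protein. Pink1 is the kinase that marks damaged mitochondria, Prdx2 a peroxide-reducing enzyme, and Pisd-ps3 a pseudogene of phosphatidylserine decarboxylase. Scd2 is a fatty acid desaturase, Sc5d an enzyme of cholesterol synthesis, Phgdh the first enzyme of serine synthesis and Mtmr7 a phosphoinositide phosphatase. Khdrbs1 is the RNA-binding protein Sam68, Rbbp4 a histone-binding protein of chromatin complexes, Exosc9 an exosome subunit, Polr3k a subunit of RNA polymerase III, Rps9 and Rps4l ribosomal proteins, and Zwint a kinetochore protein that is abundant in brain. Rgcc is a regulator of the cell cycle, Ptp4a2 a phosphatase anchored by a prenyl group, Lamp2 a lysosomal membrane protein and Nr4a1 an immediate early nuclear receptor. Erdr1, Fam126b, Fam168a, Smim10l1, Zc2hc1a, 1500011B03Rik and 4833420G17Rik complete the set.

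Promoter sequences are shown for Pttg1, which had the widest spread, and for Meg3 and Rian, whose member probe sets moved together from array to array. They are the 250 bases before the start of each gene, from RefSeq on GRCm38.p6, read 5′ to 3′ on the strand of the gene. Pttg1 lies on the minus strand at chr11:43425982-43426231, Meg3 on the plus strand at chr12:109540746-109540995 and Rian on the plus strand at chr12:109603695-109603944. Capitals mark matches, on either strand, to CCAAT, to GGGCGG, to TATAAA or to the palindrome TGACGTCA, the binding sequence of cyclic AMP response factors.
Pttg1: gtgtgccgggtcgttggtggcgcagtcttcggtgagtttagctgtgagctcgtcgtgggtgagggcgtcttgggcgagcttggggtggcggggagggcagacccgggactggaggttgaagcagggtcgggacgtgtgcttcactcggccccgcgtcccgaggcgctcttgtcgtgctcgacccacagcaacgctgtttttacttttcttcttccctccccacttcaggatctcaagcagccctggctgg
Meg3: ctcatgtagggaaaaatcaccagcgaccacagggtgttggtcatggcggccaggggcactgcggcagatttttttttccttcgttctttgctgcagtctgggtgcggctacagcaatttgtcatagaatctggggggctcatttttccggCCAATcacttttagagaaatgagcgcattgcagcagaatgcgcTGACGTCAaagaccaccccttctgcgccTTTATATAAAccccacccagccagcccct
Rian: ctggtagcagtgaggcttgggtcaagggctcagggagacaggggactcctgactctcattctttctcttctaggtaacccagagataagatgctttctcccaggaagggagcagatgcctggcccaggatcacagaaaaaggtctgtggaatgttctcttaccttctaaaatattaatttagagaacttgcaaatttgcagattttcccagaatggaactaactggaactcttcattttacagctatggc
The Meg3 window held 1 CCAAT, 1 TGACGTCA and 2 overlapping matches to TATAAA, and the other 2 windows held none of the 4 motifs. A match is a description of letters, and it does not show that a factor binds there. Of 32851 such windows in the mouse table, 33.8% held CCAAT, 32.7% GGGCGG, 12.4% TATAAA and 1.55% TGACGTCA. A window was found for 27 of the 36 member genes, 31 windows in all, of which 11 held CCAAT, 13 GGGCGG, 2 TATAAA and 3 TGACGTCA. A second Meg3 window in the table, at a later start, held none of the 4.

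Pttg1 had the widest spread of the set, and its levels were farther apart in the low freezing line than in the high one. In amygdala of the low line its level was 8.37, 10.58, 6.60, 10.51, 9.53 and 10.57 on arrays 1 to 6. In hippocampus of the low line it was 10.22, 7.01, 10.58, 10.57, 10.29 and 11.12. Array 3 was lowest in amygdala and array 2 in hippocampus, so the low arrays did not carry the same number in the 2 tissues. In the high line the level lay between 9.14 and 10.26 in amygdala (median 9.71) and between 9.54 and 10.79 in hippocampus (median 10.37). Without array 2 the low line arrays of hippocampus lay between 10.22 and 11.12, so the wider spread there rests on 1 array. The highest low line array stood 15.7-fold above the lowest in amygdala and 17.2-fold in hippocampus on this scale, against 2.17-fold and 2.38-fold in the high line. The lines overlapped in both tissues. The difference between the lines, high minus low, was 0.38 ± 0.59 (SE) in amygdala and 0.30 ± 0.57 in hippocampus, and neither passed limma's test (adjusted p = 0.936 and 0.915, n = 6 arrays per line). The second member probe set of Pttg1 followed the first at a Pearson r of 0.98 over the 24 deviations from group means, and ran from 5.46 on array 3 to 8.89 in low line amygdala and from 6.21 on array 2 to 9.25 in low line hippocampus. Another, dim probe set (mean level 5.47) followed at 0.60.

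**Figure D1:**
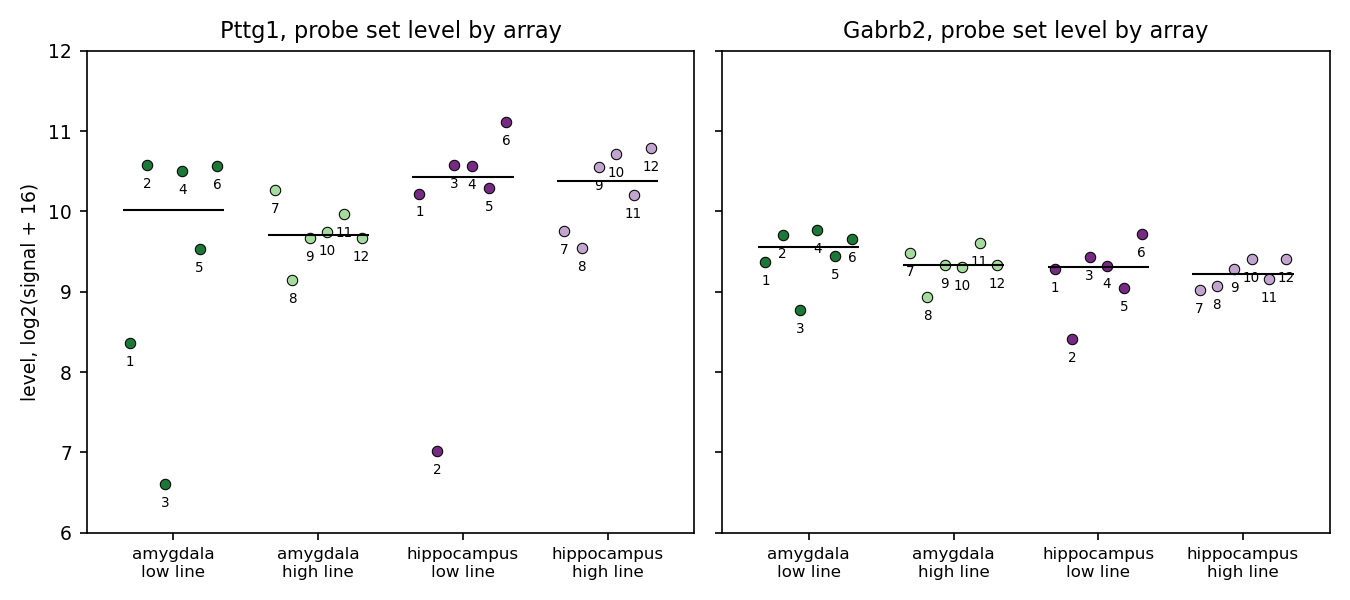
Level, log2(signal + 16), of Pttg1 (left) and of the Gabrb2 probe set most like it (right) on each of the 24 arrays. Points are arrays, labelled by number, and bars are group medians. Low line array 3 in amygdala (6.60 for Pttg1) and array 2 in hippocampus (7.01) are the lowest of their tissue in both panels.

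The probe set most like Pttg1 read Gabrb2, a subunit gene of the GABA-A receptor. Its deviations from group means followed those of Pttg1 at a Pearson r of 0.93 (Spearman rho 0.86) over 24 arrays, 0.91 within amygdala and 0.95 within hippocampus. Without the 2 arrays farthest from the median of Pttg1 the r was 0.82. Its level ran from 8.77 to 9.77 in low line amygdala, with array 3 lowest, and from 8.41 to 9.72 in low line hippocampus, with array 2 lowest. In the high line it ran from 8.93 to 9.61 and from 9.02 to 9.41. Its SDs of 0.31 and 0.34 fell just below the threshold, so Gabrb2 is no member. In the order of the reference gene table Gabrb2 and Pttg1 lie on the same chromosome with 4 genes between them, none of which had a named probe set above a level of 8. The Gabrb2 probe sets were not alike: those with mean levels of 9.74 and 10.36 followed Pttg1 at 0.90 and 0.74, while the brightest, at 10.47, did so at -0.28 with SDs of 0.08 and 0.07. Next in likeness came Scd2 (0.77), Mbp, a myelin protein gene (0.74), Fgf13, a fibroblast growth factor homologue that acts inside neurons (0.73), and Rab3a (0.72). Without the 2 farthest arrays these values were 0.61, 0.67, 0.56 and 0.57. The array is shared by all values correlated here, so that its scaling and quality enter both sides.

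Genes that work with securin were mostly steadier from array to array than Pttg1, which was chosen for its wide spread. Of a list of cohesin, separase and spindle checkpoint genes, 32 besides Pttg1 were measured and 18 had a mean level above 8. Their r with Pttg1 lay between -0.57 and 0.43, with a median of -0.03. The median SD of the 32 was 0.13 in amygdala and 0.16 in hippocampus. For the 7500 probe sets with 1 symbol and a mean level above 8 it was 0.12 and 0.11. An SD above 0.35 in both tissues was found for 4 of them, Bub1b, Mad1l1, Cdk1 and Cdca5, all below a mean level of 8. With Pttg1 the list held 33 measured genes, of which 0 differed between the lines at an adjusted p under 0.05 in either tissue.

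Some other members, too, had a larger spread in the low line. Of the 41 probe sets, 19 (46.3%) had the larger SD in the low line in both tissues, among them both of Pttg1 and both of Rian. In the high line 6 (14.6%) had it in both tissues, and 16 (39.0%) differed by tissue. Among the 7500 bright named probe sets 1947 (26%) were wider in the low line in both tissues, 25.8% in the high line, and 48.3% differed by tissue. The SD was over 2 times as large in the low line in both tissues for 5 probe sets (12.2%, against 1.33% of the 7500): both of Pttg1, and those of Rgcc, Pink1 and Necab1. No member was that much wider in the high line in both tissues (1.21% of the 7500). For Pttg1 the SDs in amygdala were 1.60 (low line) and 0.37 (high line), and those in hippocampus 1.48 and 0.52. The 1.48 rests on array 2 at 7.01, while the other low line arrays of hippocampus lay between 10.22 and 11.12. The rule used the SD pooled over both lines, and the SDs compared here are the values that it pooled. A large SD in either line alone could carry a probe set over the threshold. In amygdala and hippocampus the high line SDs were 0.10 and 0.27 for Necab1 and 0.07 and 0.23 for Pink1, all below the threshold. The shares with an uneven split are therefore partly set by the rule, though the rule treated the lines alike. They are a description, and the split is given with no test.

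**Figure D2:**
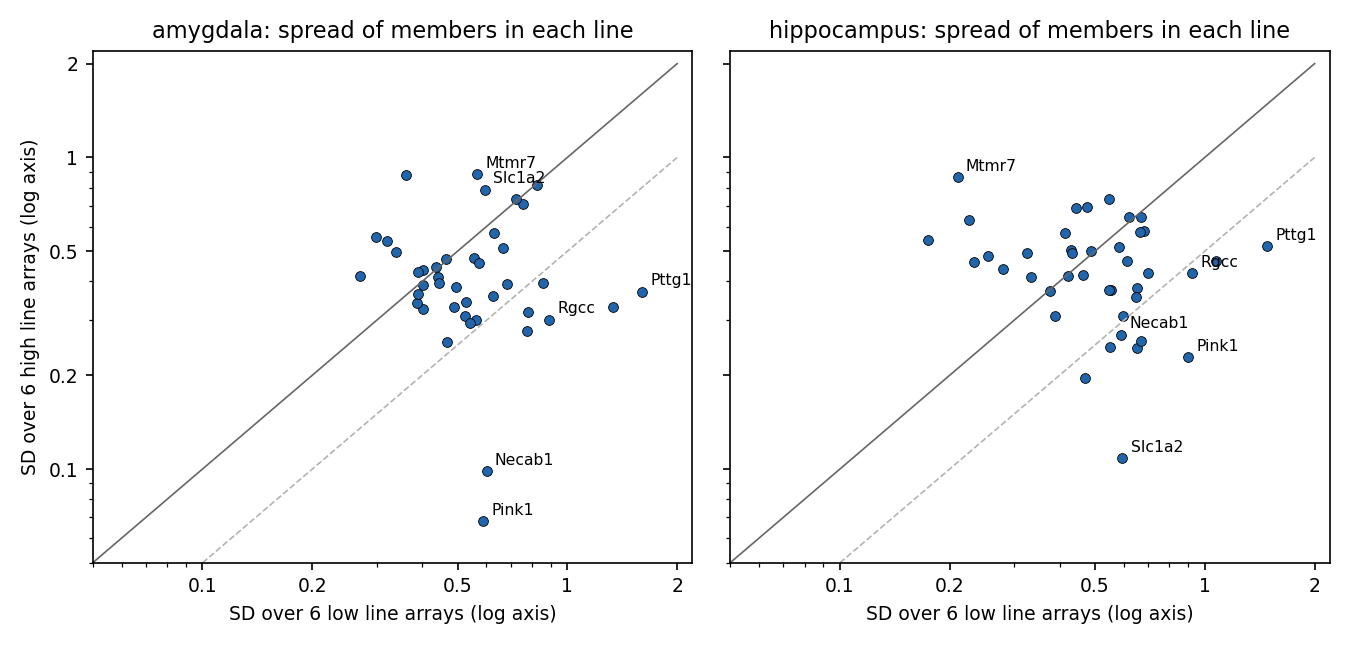
SD of the level over the 6 arrays of the low line (x) and of the high line (y), both on log axes, for the 41 member probe sets in each tissue. The solid line marks equal SDs and the dashed line an SD 2 times as large in the low line. Pttg1, Rgcc, Pink1 and Necab1 lie below the dashed line in both tissues.

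Necab1 showed the uneven spread at a level that also separated the tissues. In amygdala it ran from 8.39 to 9.99 in the low line (median 9.79) and from 9.73 to 9.99 in the high line (median 9.87). The low value of the first group was array 3 alone. In hippocampus it ran from 6.42 to 7.99 in the low line (median 7.66) and from 7.44 to 8.18 in the high line (median 7.73). The hippocampus level was 2.11 below that of amygdala (adjusted p = 1.11e-09, limma, n = 12 arrays per tissue), and no array of one tissue reached the other. The line differences were 0.26 ± 0.23 and 0.35 ± 0.24 (adjusted p = 0.873 and 0.719). The other probe set of Necab1, at a mean level of 8.88 with SDs of 0.22 and 0.28, had an r of 0.31 with the member. Its line differences were -0.03 and 0.26.

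No member differed between the lines at an adjusted p under 0.05. The count was 0 of 41 in amygdala, where 0.00222% of all probe sets tested were called, and 0 of 41 in hippocampus, where 0.0222% were called. The lowest adjusted p among members was 0.413 in amygdala (Pink1) and 0.198 in hippocampus (Ptp4a2). At an unadjusted p under 0.05 the counts were 14 in amygdala (34.1%) and 11 in hippocampus (26.8%), against 6.54% and 8.97% of all probe sets and 4.81% and 6.61% of the bright named ones. The same 11 probe sets passed that level in both tissues with the same sign, as did 0.762% of all probe sets and 0.933% of the bright named ones. Members were chosen for a large spread, and limma's shrunken variance lies below their own, which lowers their p-values. The counts at an unadjusted p are therefore partly set by the rule. With the ordinary variance in place of limma's shrunken one, 8 of the 11 passed in both tissues, without Khdrbs1, Prdx2 and Rab3a. That is 19.5% of members, against 1.36% of the bright named probe sets. Without the 3 arrays that stood apart 8 passed as well, without Prdx2, Rab3a and Shisa4. Tissues that came from the same animals would not be independent, and the labels do not settle this. The 18S control differed between the same hippocampus arrays; its r with member deviations inside groups reached 0.6 in size only for Ptp4a2 (-0.62). The summed hippocampus markers were also separate between the lines in hippocampus, with 13.85 to 13.97 on low line arrays and 13.67 to 13.79 on high line arrays, and so were the summed amygdala markers there, at 11.08 to 11.27 and 11.30 to 11.44. Of the 14 hippocampus markers 7 had a negative line difference in hippocampus at an unadjusted p under 0.05. Within groups no member reached an r of 0.6 in size with either sum, and the part of these markers in the line differences was not tested.

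The line differences of the members were large beside those of other genes, though their errors were large too. Their median size was 0.38 in amygdala and 0.24 in hippocampus, against 0.06 in both for the 7500. The rule chose a large spread within groups, which by itself makes differences between means of 6 arrays larger. These sizes are therefore a description. The sign was the same in both tissues for 32 of 41 (78%, against 54.4%). Above 0 were 21 of 41 in amygdala (51.2%, against 55.4% of the bright named probe sets) and 20 in hippocampus (48.8%, against 41.3%). Ranges of the lines were separate for 2 members in amygdala, Rgcc and Pink1 (0.402% of all probe sets tested), and for 0 in hippocampus (0.637%). No member had a line effect that differed between the tissues, where 0% of all probe sets were called. At an unadjusted p under 0.05 that count was also 0 for members, against 5.53% of the bright named probe sets.

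**Figure D3:**
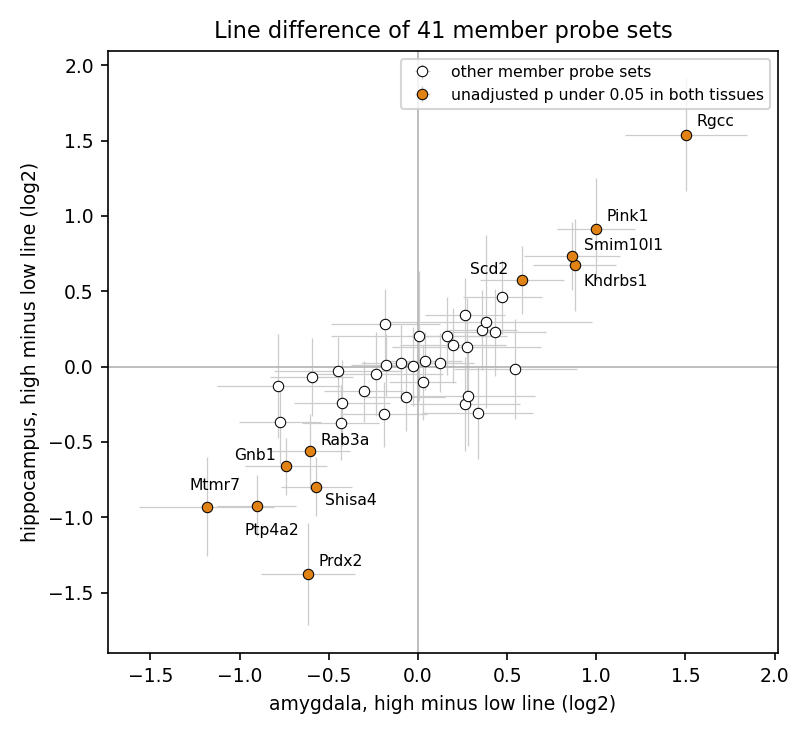
Line difference, high minus low on the log2 scale, in amygdala (x) and hippocampus (y) for the 41 member probe sets, with standard errors as grey bars. Filled points are the 11 with an unadjusted p under 0.05 in both tissues, 5 above 0 and 6 below; Rgcc lies farthest out at 1.5 and 1.54. None passed at an adjusted p under 0.05.

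Rgcc, the cell cycle regulator, had the largest differences of the set. In amygdala it ran from 6.64 to 8.58 in the low line (median 7.30) and from 8.60 to 9.35 in the high line (median 9.08). The ranges only just parted, with low line array 4 next to high line array 7. In hippocampus it ran from 6.45 to 8.72 in the low line (median 8.26) and from 8.50 to 9.58 in the high line (median 9.54), and the ranges overlapped. The differences were 1.5 ± 0.34 SE (adjusted p = 0.427) and 1.54 ± 0.38 (adjusted p = 0.268). The other probe set of Rgcc, with a mean level of 7.84, had differences of -0.23 and -0.06, and its deviations ran against those of the member at an r of -0.64.

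Pink1, which is outside the rule for naming genes by array and is given after its values were seen, had narrow ranges in the high line. Its level ran from 9.08 to 10.45 in low line amygdala (median 9.70) and from 10.66 to 10.81 in the high line (median 10.79). In hippocampus the range was 8.72 to 10.82 in the low line (median 9.66) and 10.18 to 10.88 in the high line (median 10.61). All 6 high line arrays of amygdala lay above all low line arrays, while in hippocampus low line arrays 2, 5 and 6 lay inside the high line range and arrays 1, 3 and 4 below it. The differences were 1.00 ± 0.22 and 0.91 ± 0.34 (adjusted p = 0.413 and 0.479). The other probe set of Pink1, at a mean level of 10.07, followed the member at 0.96 and had differences of 0.42 and 0.46.

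Khdrbs1 also had the higher level in the high line. In amygdala it ran from 7.76 to 9.08 in the low line (median 8.79) and from 8.73 to 9.62 in the high line (median 9.57). In hippocampus it ran from 7.53 to 9.38 (median 8.51) and from 8.70 to 9.85 (median 8.92). High line array 8 lay inside the low line range in amygdala, and the lines overlapped in hippocampus. The differences of 0.88 ± 0.23 and 0.68 ± 0.30 did not pass (adjusted p = 0.513 and 0.551). Of its 3 other bright probe sets, 1 (mean level 9.75) had differences of 0.38 and 0.27, and the others lay between -0.13 and 0.17. Further members with positive differences, named after their values were seen, were Smim10l1 (0.86 and 0.73) and Scd2 (0.59 and 0.58).

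Ptp4a2 had the lowest adjusted p of any member, in hippocampus. Its level, given after the values were seen, ran from 10.34 to 11.13 in low line amygdala (median 10.69) and from 9.03 to 10.48 in the high line (median 9.78). In hippocampus it ran from 10.04 to 11.04 (median 10.74) and from 9.33 to 10.19 (median 9.77). Only the ends of the ranges overlapped in each tissue. The differences were -0.90 ± 0.22 and -0.92 ± 0.20 (adjusted p = 0.474 and 0.198), and with an intensity trend in the variance the hippocampus value passed (adjusted p = 0.0224). Another Ptp4a2 probe set, with a mean level of 9.97, went the other way, with differences of 0.28 and 0.22 and an r of -0.65 with the member. One more, at 9.86, lay at 0.07 and -0.07.

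Mtmr7 varied most in the high line. In amygdala it ran from 7.79 to 9.34 in the low line (median 8.93) and from 6.08 to 8.44 in the high line (median 8.02). In hippocampus it ran from 8.44 to 8.98 (median 8.62) and from 6.20 to 8.77 (median 7.86). High line array 8 was lowest in amygdala and array 7 in hippocampus, and both are among the arrays that stood apart. The differences were -1.18 ± 0.38 and -0.93 ± 0.33 (adjusted p = 0.606 and 0.453), and -1.01 and -0.62 without the arrays that stood apart. Its other probe set, with a mean level of 8.52 and SDs of 0.13 and 0.12, had differences of -0.20 and -0.23.

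Prdx2 and Rab3a, an antioxidant enzyme and a vesicle protein, moved together from array to array. Their deviations correlated at 0.87 over 24 arrays (Spearman rho 0.78), 0.86 in amygdala and 0.89 in hippocampus. Prdx2 ran from 8.81 to 10.17 in low line amygdala (median 10.02) and from 8.40 to 9.29 in the high line (median 9.27), and in hippocampus from 8.31 to 9.74 (median 9.47) and from 6.69 to 8.76 (median 7.96). Rab3a ran from 10.76 to 11.96 (median 11.92) and from 10.60 to 11.28 (median 11.13) in amygdala, and from 10.64 to 12.03 (median 11.91) and from 10.41 to 11.37 (median 11.26) in hippocampus. For both genes the lowest low line array was array 1 in amygdala and array 2 in hippocampus, and the lowest high line arrays were 8 and 7. The line differences of Prdx2 were -0.62 ± 0.26 and -1.38 ± 0.34, and those of Rab3a -0.60 ± 0.23 and -0.56 ± 0.25; none of the 4 passed (adjusted p = 0.744, 0.271, 0.701 and 0.544). The other probe sets of these genes were steadier. The other Prdx2 probe set, at a mean level of 10.78 with SDs of 0.05 and 0.09, ran against the member at -0.63, and the other Rab3a probe set, at 10.66 with SDs of 0.08 and 0.09, had an r of -0.10.

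Gnb1 and Shisa4, named after their values were seen, were the remaining members of the 11. Gnb1 had differences of -0.74 and -0.66, and its other bright probe set (mean level 10.45, SDs of 0.49 and 0.33) followed at 0.84 with differences of -0.47 and -0.49. Shisa4 had differences of -0.57 and -0.80 and no other probe set. For the 11 genes, 9 had another bright probe set, 13 in all, of which 7 had the sign of the member in both tissues and 4 passed an unadjusted p under 0.05 in both, among them that of Ptp4a2 with the opposite sign.

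Meg3 and Rian, the imprinted noncoding RNAs, were the most alike of all 630 pairs of member genes. Their r was 0.90 (Spearman rho 0.92) over 24 arrays and 0.90 in each tissue, and 2 genes lie between them in the reference order. Meg3 ran from 10.29 to 12.08 in low line amygdala (median 11.22) and from 11.03 to 12.11 in the high line (median 11.86), and in hippocampus from 9.81 to 11.60 (median 11.42) and from 10.00 to 11.55 (median 11.37). Rian ran from 9.05 to 10.90 (median 9.96) and from 9.68 to 10.76 (median 10.53) in amygdala, and from 9.36 to 10.92 (median 10.44) and from 9.53 to 10.91 (median 10.68) in hippocampus. In hippocampus array 2 of the low line and array 9 of the high line were lowest for both genes. The lines overlapped, with differences of 0.55 ± 0.34 and -0.02 ± 0.33 for Meg3 and 0.43 ± 0.29 and 0.23 ± 0.29 for Rian (adjusted p = 0.825, 0.992, 0.833 and 0.858). Without the arrays that stood apart the Rian value in amygdala was 0.65. The second Rian member probe set followed the first at 0.96. Of the other bright Rian probe sets, that at a mean level of 8.26 had an r of 0.17 with it. The one at 8.16 had an r of 0.40. Of the 10 other bright Meg3 probe sets, the one with a mean level of 12.25 followed the member at 0.73 with SDs of 0.09 and 0.06, and that at 11.82 had an r of -0.37. The rest lay between -0.19 and 0.40. The r of 0.90 between Meg3 and Rian is thus that of their brightest member probe sets.

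**Figure D4:**
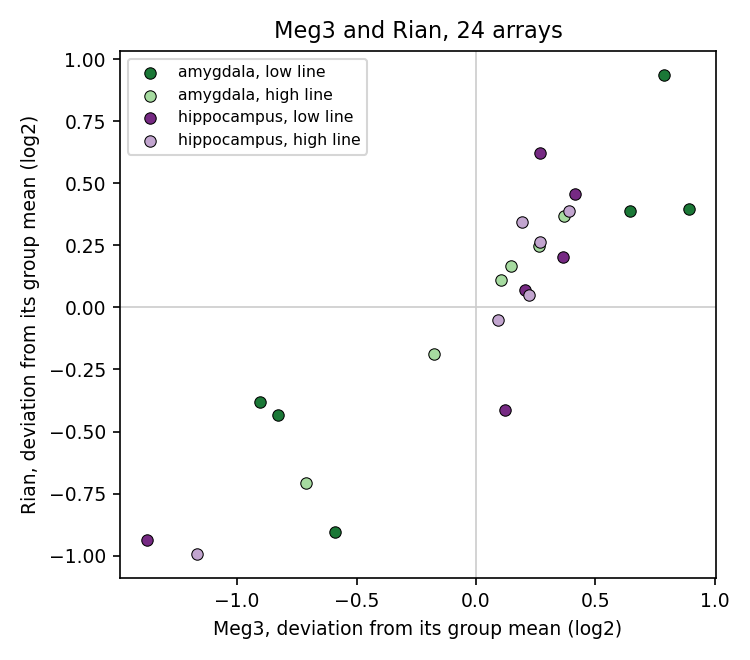
Deviation of the brightest member probe sets of Meg3 (x) and of Rian (y) from the mean of their own group, log2 scale, on 24 arrays coloured by tissue and line. The points run along 1 diagonal (r = 0.90), and hippocampus arrays 2 (low line) and 9 (high line) are at its lower end.

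Few other pairs of members went together in both tissues. An r above 0.6 in each tissue was found for 7 of the 630 pairs, and an r below -0.6 for 2, with a median over all pairs of 0.01. Besides the pairs above these were Pttg1 with Scd2, Pttg1 with Rab3a, Khdrbs1 with Zc2hc1a (0.75 over 24 arrays), Khdrbs1 with Pink1 (0.74) and Fam168a with Rps9 (0.70). Opposed were Pisd-ps3 with Zc2hc1a (-0.72) and Erdr1 with Ptprg (-0.65). The first principal component of the members held 18.4% of their variance within groups and the second 12.7%. Khdrbs1 and Ptp4a2, with 1 gene between them on their chromosome, had an r of -0.35.

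Pisd-ps3 was the only gene with 3 member probe sets. The brightest ran from 10.20 to 11.34 in low line amygdala (median 10.67) and from 9.25 to 10.49 in the high line (median 9.99), and in hippocampus from 9.71 to 11.25 (median 10.92) and from 9.82 to 10.85 (median 10.31). The other 2 members followed it at 0.96 and 0.81, so all 3 were high and low on much the same arrays. The line differences of the brightest were -0.77 ± 0.23 and -0.37 ± 0.28 (adjusted p = 0.564 and 0.733). As a pseudogene its probes could also read transcripts of the parent gene, which was not tested.

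Zc2hc1a had 2 member probe sets that followed each other at 0.90. The brighter ran from 8.15 to 9.75 in low line amygdala (median 9.12) and from 8.53 to 10.04 in the high line (median 9.12), and in hippocampus from 8.18 to 9.42 (median 8.94) and from 7.49 to 9.29 (median 8.69). High line array 12 was highest in both tissues. Its line differences were 0.33 ± 0.31 and -0.31 ± 0.30 (adjusted p = 0.888 and 0.806), and 0.57 and -0.09 without the arrays that stood apart. A non-member probe set at a mean level of 9.36 had SDs of 0.06 and 0.11.

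Among the other genes of metabolism, Phgdh ran from 7.22 to 8.88 in low line amygdala (median 8.67) and from 7.18 to 8.89 in the high line (median 8.04), and in hippocampus from 7.29 to 9.24 (median 8.63) and from 7.67 to 8.76 (median 8.52). High line array 10 was lowest in both tissues. Sc5d ran from 7.55 to 8.84 (median 8.03) and from 7.49 to 8.61 (median 7.86) in amygdala, and from 7.93 to 8.58 (median 8.30) and from 7.09 to 8.93 (median 8.48) in hippocampus. High line array 11 was highest of its group for Sc5d in amygdala and lowest in hippocampus. Slc1a2, the glutamate transporter, ran from 8.82 to 10.59 (median 9.78) and from 7.97 to 10.09 (median 9.60) in amygdala. In hippocampus it ran from 9.38 to 11.22 in the low line (median 10.28) and only from 10.15 to 10.44 in the high line (median 10.31). The brightest Slc1a2 probe set, at a mean level of 12.54, had SDs of 0.08 and 0.05 and an r of 0.10 with the member.

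Of the genes of chromatin and protein synthesis, Rps9 ran from 9.35 to 10.81 in low line amygdala (median 10.60) and from 9.13 to 10.58 in the high line (median 9.98), and in hippocampus from 9.15 to 10.78 (median 10.55) and from 9.31 to 10.58 (median 10.23). Its other bright probe set, at 11.09 with SDs of 0.05 and 0.05, ran against the member at -0.66. Rbbp4 ran from 7.52 to 9.10 (median 8.50) and from 7.60 to 9.09 (median 8.16) in amygdala, and from 8.00 to 9.15 (median 8.66) and from 8.13 to 9.25 (median 9.07) in hippocampus. Zwint ran from 7.37 to 8.74 (median 8.50) and from 8.00 to 8.71 (median 8.50) in amygdala, and from 7.21 to 8.36 (median 7.94) and from 7.04 to 8.35 (median 8.19) in hippocampus. The lines overlapped for each of these genes. The brightest Zwint probe set lay at a mean level of 12.25, with SDs of 0.11 and 0.10 and an r of 0.13 with the member.

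Among the genes of less known function, none was called between the lines either. Erdr1 ran from 7.90 to 9.93 in low line amygdala (median 9.33) and from 8.90 to 9.52 in the high line (median 9.31), and in hippocampus from 8.80 to 10.18 (median 9.65) and from 9.24 to 10.14 (median 9.76). Low line array 5 was lowest in both tissues. Then 1500011B03Rik ran from 7.48 to 9.67 (median 8.56) and from 8.43 to 9.20 (median 8.96) in amygdala, and from 7.56 to 8.89 (median 8.38) and from 6.93 to 8.79 (median 8.18) in hippocampus; its other probe set, at a mean level of 7.31, ran against it at -0.86. Fam168a ran from 9.45 to 10.28 (median 9.99) and from 8.75 to 10.21 (median 10.07) in amygdala, and from 9.42 to 10.49 (median 9.85) and from 8.90 to 10.55 (median 10.03) in hippocampus. The low value of high line amygdala was array 7, one of the arrays that stood apart. Fam126b ran from 9.07 to 9.99 (median 9.63) and from 8.33 to 9.66 (median 9.09) in amygdala, and from 8.47 to 9.84 (median 9.30) and from 8.76 to 9.43 (median 9.23) in hippocampus. Its 3 other probe sets followed at 0.52 to 0.73.

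For the remaining 12 genes (4833420G17Rik, Exosc9, Gnb1, Gprc5b, Lamp2, Polr3k, Ptprg, Rps4l, Scd2, Shisa4, Smim10l1 and Snhg11) the distance from the lowest to the highest array of a group had a median of 1.08. It was smallest for Exosc9 (0.38) and largest for Ptprg (1.71), both in low line hippocampus. Their line differences ran from -0.74 to 0.86 in amygdala and from -0.80 to 0.73 in hippocampus, and the lowest adjusted p values were 0.6 and 0.283.

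Most other probe sets of the member genes had a narrow spread. Of the 36 genes, 32 had a probe set that was no member, 83 in all, of which 47 over 25 genes had a mean level above 8. None of the 47 had an SD above 0.35 in both tissues, as the rule itself requires of any that is not left out otherwise. Their median SD was 0.13 in amygdala and 0.11 in hippocampus. Their r with the member had a median of 0.17. It was 0.21 over 2393 pairs of bright probe sets of the same gene, taken from genes outside the set. In those pairs the brightest probe set of a gene was compared with its others, while here the brightest member probe set was. The values are thus not built alike. An r above 0.5 was found for 13 of the 47 (27.7%, against 18.3% of those pairs), and an r below 0 for 13. In 15 genes 26 of the 47 were brighter than the member, and 7 of the 26 followed it at an r above 0.5. Scd2 is an example: the member, at a mean level of 10.04, had an r of 0.00 with the probe set at 12.48, whose SDs were 0.07 and 0.06.

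**Figure D5:**
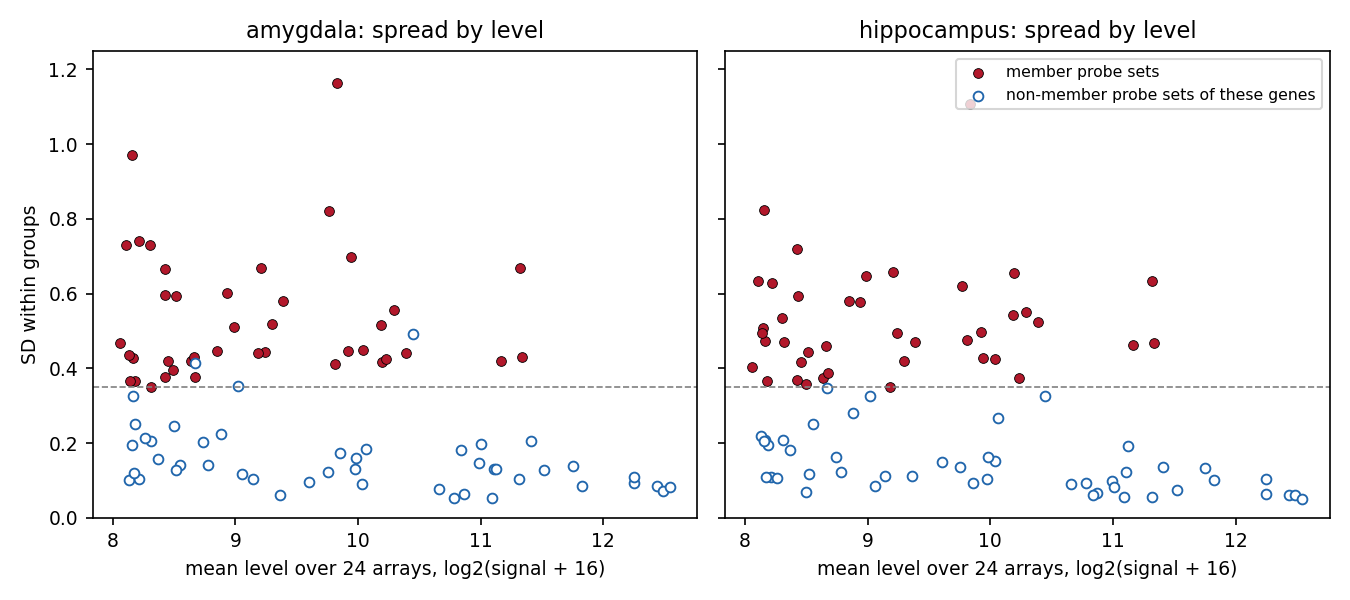
SD within groups (y) against mean level over 24 arrays (x) in each tissue, for the 41 member probe sets (filled) and 47 further probe sets of those genes with a mean level above 8 (open). The dashed line is the threshold of 0.35 that chose the members; most open points lie far below it, with medians of 0.13 and 0.11.

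The design of the probe sets differed as well. Names with the suffix x_, given by the maker to sets with probes that can bind other transcripts, made up 8 of 41 (19.5%, against 8.25% of the 7500). The suffix s_, for sets whose probes match several transcripts, made up 7 (17.1%, against 8.48%). Sets with the suffix a_ made up 7 (17.1%, against 18.2%) and those with no such letter 19 (46.3%, against 65.1%).

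Nr4a1 followed some of the other immediate early genes from array to array. Its level, given after the values were seen, ran from 7.69 to 8.89 in low line amygdala (median 8.14) and from 7.75 to 8.75 in the high line (median 8.33), and in hippocampus from 8.21 to 9.30 (median 8.73) and from 8.56 to 9.08 (median 8.79). Array 2 of the low line was highest in both tissues. Of 25 other immediate early genes, which neurons switch on within minutes of activity, 9 followed Nr4a1 at an r above 0.6 over 24 arrays, among them Fos (0.89), Egr1 (0.89), Dusp1 (0.87) and Arc (0.81). The median r of the 25 was 0.51, and the r with their summed level was 0.85. Of the 10 with a mean level above 8, 4 had an r above 0.6, with a median of 0.38, and Jun (0.15) and Jund (0.01) were among those that did not follow. The lines overlapped for Nr4a1, with differences of 0.04 ± 0.21 and 0.03 ± 0.19 (adjusted p = 0.983 and 0.974). Of the 26 genes of the list 0 differed between the lines at an adjusted p under 0.05 in either tissue.

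Between the tissues 7 of 41 members differed (17.1%), where 25.8% of all probe sets tested were called and 52.4% of the bright named ones. A large spread within groups, for which members were chosen, makes such a call harder, so this share is partly set by the rule. The median size of the tissue difference was 0.24 for members and 0.16 for the bright named probe sets. A large spread by itself also makes such differences larger. Higher in hippocampus were Slc1a2 (0.71, adjusted p = 0.0207), Nr4a1 (0.53, adjusted p = 0.00857) and Gprc5b (0.52, adjusted p = 0.0146). Higher in amygdala, with hippocampus minus amygdala given, were Necab1 (-2.11), Rps4l (-0.85, adjusted p = 0.00027), Prdx2 (-0.79, adjusted p = 0.0109) and Snhg11 (-0.73, adjusted p = 0.00249). In tissue samples fewer cells of a type and less RNA per cell cannot be told apart.

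Whether arrays of the same number were high or low together in both tissues was tested as well. At an adjusted p under 0.05 the number, as a term over both tissues, was called for 0 of 41 members and for 0% of all probe sets. At an unadjusted p under 0.05 it was 3 of 41 (Gnb1, Nr4a1 and Polr3k; 7.32%), where 5.23% of all probe sets passed. The intraclass correlation, which is 1 where both arrays of a number deviate alike and 0 where they are unrelated, had a median of -0.01 over the members. It was -0.26 for Pttg1, -0.60 for Rgcc and 0.51 for Nr4a1.

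Measures of array quality and markers of other cell types were set beside the members. With the median signal and the actin and Gapdh 5' to 3' ratios, 0 of the 36 genes had an r above 0.6 in size within groups. The same held for the summed levels of markers of fibroblasts and meninges (15 measured genes), microglia (14), oligodendrocytes (14), astrocytes (12) and endothelium (14). For Ttr, and for the choroid plexus markers that include it (14), a count of members says little, since the rule removed probe sets that followed Ttr. The choroid plexus sum itself ran from 10.03 to 13.89 in amygdala and from 10.98 to 14.09 in hippocampus. Zc2hc1a reached -0.60 with the sum of 9 red blood cell markers.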

How the data were processed

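The authors deposited 1 linear intensity per probe set for each of 24 arrays. The values show that every array was scaled to a mean of 150 without the highest and lowest 2% of probe sets. The signal software is not given in the sources used here. Line and tissue were read from the description of a sample, and its number from the title. Names came from the platform annotation, updated through Entrez identifiers for 34741 of the 34945 probe sets with 1 symbol. An array gives no count, so precision rests on the number of arrays. After 64 controls were left out, log2(intensity + 16) was fitted with limma 3.58.1 in R 4.3.3 (lmFit and eBayes): the line difference within a tissue, the tissue difference and the interaction over 24 arrays, and the array number with ordinary variance, each adjusted by Benjamini-Hochberg over 45037 probe sets. The fits were tested on simulated data. Correlations used deviations from group means and are descriptions. The members and gene lists were chosen with earlier results of these data known. Array values are given for Pttg1 and up to 20 member genes, called ones first (there were none) and then by the smaller SD of the tissues. Genes outside this rule are marked as named after their values were seen. Alternatives were the offset, scaling, a filter on dim probe sets, the variance, the arrays in the fit and the array number as a block.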

Additional observations from a re-analysis of the deposited data

Results flagged for a closer look

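In 13 of 84 groups of 6 arrays (21 genes in 4 groups each) the extreme array stood off by more than Dixon's limit of 0.625 of the group's range, where chance flags about 1 in 20 groups that were not selected. These genes were chosen for a large spread within groups, which a single outlying array can produce, so the number of groups is a description and is not to be read against chance. In low line hippocampus this was array 2 for Pttg1 (lowest, 7.01) and Meg3 (lowest, 9.81), and array 6 for Rps9 (lowest, 9.15). In low line amygdala it was array 3 for Necab1 (lowest, 8.39). In high line amygdala it was array 8 for Khdrbs1 (lowest, 8.73) and array 7 for Fam168a (lowest, 8.75), the arrays with low actin ratios. In high line hippocampus the lowest arrays were array 9 for Meg3 (10.0) and Rian (9.53), array 7 for Rgcc (8.50), array 10 for Phgdh (7.67), array 8 for Zwint (7.04) and array 11 for Sc5d (7.09), and the highest was array 12 for Khdrbs1 (9.85). Low line groups held 4 of the 13 and high line groups 9.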

How the results depend on the processing

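Under the alternatives run, 46 of 47 recomputed counts stayed within 1.5 times the reported one. The exception is the count of members called between the lines in hippocampus, 0 in the report and 1 (Ptp4a2) with an intensity trend. Of the 214 recomputed values of single genes 7 changed sign, all of them differences that did not pass a test. Fam168a was at 0.204 in amygdala without the arrays that stood apart, and in hippocampus at -0.00046 with log2(value + 1) and -0.0657 with median centring. In hippocampus, Meg3 was at 0.0193 with quantile normalization, Fam126b at 0.0073 without the array that stood apart, and Sc5d at -0.0168 without it and -0.043 with median centring. The rule chose 45 probe sets with log2(value + 1) (40 shared), 39 with log2(value + 64) (32 shared) and 40 with quantile normalization (40 shared). The counts of members that differed in both tissues at an unadjusted p, and of members wider in the low line, were recomputed with alternatives chosen after seeing the data, as was median centring of single genes; they ran from 8 to 11 and from 19 to 21. With the array number as a replicate block 7 members were called between tissues, as without it, and 0 for the interaction. The values showed no clear pairing by number: over 12 numbers the r between tissues ran from -0.147 to 0.219, was over 0.1 for 2, and was highest for the own number for 2. A low r cannot tell whether a number stands for 1 animal, since arrays of the same animal can differ for other reasons. Each group rests on 6 arrays, and 1 array can make the spread of a group.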
